A study of Homo sapiens with 16 samples.

Results

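The MHC class II presentation genes CD74, CIITA, HLA-DRA, HLA-DRB1, HLA-DMA, HLA-DMB, HLA-DPA1, HLA-DPB1 and IFI30 were followed across all libraries of a leukaemia experiment. The set of 9 genes was taken by name, without regard to measured values, and 4 of them, CD74, IFI30, HLA-DMB and CIITA, were matched to a row among the 26830 entries. HLA-DRA, HLA-DRB1, HLA-DMA, HLA-DPA1 and HLA-DPB1 were not analysed here. All 4 matched genes were among the 14951 entries that reached at least 1 TPM in at least 3 libraries and were tested. TPM is a transcript abundance corrected for transcript length and scaled to one total per library, so levels can be set side by side between genes.

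Poly(A) RNA was sequenced from NOMO-1, a human line established from an acute monocytic leukaemia. In one arm the cells were kept for 72 h in the solvent DMSO (n = 4), in 100 nM CS1 (n = 3) or in 500 nM CS2 (n = 3), compounds that the series title calls FTO inhibitors. In the other arm the cells were transduced with a lentivirus carrying a control hairpin (shNS, n = 3) or a hairpin against FTO (shFTO, n = 3) and selected with 1 µg/ml puromycin for 1 week. FTO removes the m6A methyl mark from RNA. The labels name the compounds by these codes alone. What is known of the publication, which was not checked here, equates CS1 with bisantrene and CS2 with brequinar, a drug that blocks DHODH and with it the making of pyrimidines. All groups are 1 cell line, the hairpin cells are a selected population, and the number of hairpin sequences is not given in the labels. FTO itself was at 31.6 ± 1.03 TPM in shNS and 8.0 ± 0.445 in shFTO (SD, n = 3 each).

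Class II molecules are pairs of an alpha and a beta chain that carry peptides from endosomes to the cell surface, where CD4 T cells read them. The invariant chain CD74 fills the groove and directs new molecules to endosomes. Proteases trim CD74 there, HLA-DM, made of HLA-DMA and HLA-DMB, exchanges its last fragment for a peptide, and IFI30 (GILT) opens the disulfide bonds of antigens so that they can be cut. Monocytes, dendritic cells and B cells carry this machinery. The coactivator CIITA switches the genes on without binding DNA itself: it is held at their promoters by RFX, CREB and NF-Y proteins on the neighbouring X and Y elements.

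Promoters are shown for 3 of the matched genes and for the class II chains HLA-DRB5 and HLA-DOB, because CIITA is known to act through X and Y elements and 4 of these 5 windows hold letters of both. They are RefSeq sequences of GRCh38.p14, 250 bases before to 50 bases after a transcript start. RefSeq promoters were found for 7 of the 9 genes. Capitals mark the X core TGATGA and the Y core CCAAT, the binding letters of NF-Y, or its reverse complement ATTGG. Both motifs were chosen after the sequences were seen, and both strands were searched.
CD74: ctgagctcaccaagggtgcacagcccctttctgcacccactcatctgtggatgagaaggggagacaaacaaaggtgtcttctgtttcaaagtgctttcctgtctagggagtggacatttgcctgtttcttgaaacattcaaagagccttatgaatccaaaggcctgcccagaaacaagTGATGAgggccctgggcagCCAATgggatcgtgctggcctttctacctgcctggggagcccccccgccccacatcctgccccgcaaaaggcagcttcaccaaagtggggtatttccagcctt
HLA-DMB: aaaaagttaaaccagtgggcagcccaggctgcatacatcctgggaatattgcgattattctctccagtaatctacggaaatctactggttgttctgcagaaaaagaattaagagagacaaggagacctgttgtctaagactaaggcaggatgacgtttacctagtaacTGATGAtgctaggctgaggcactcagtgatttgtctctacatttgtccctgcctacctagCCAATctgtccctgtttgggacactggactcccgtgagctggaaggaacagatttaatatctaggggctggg
HLA-DRB5: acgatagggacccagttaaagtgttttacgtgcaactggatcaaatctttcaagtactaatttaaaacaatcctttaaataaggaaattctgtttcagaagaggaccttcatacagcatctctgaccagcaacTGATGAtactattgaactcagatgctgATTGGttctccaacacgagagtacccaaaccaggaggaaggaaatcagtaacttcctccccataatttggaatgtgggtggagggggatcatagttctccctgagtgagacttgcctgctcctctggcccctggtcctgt
HLA-DOB: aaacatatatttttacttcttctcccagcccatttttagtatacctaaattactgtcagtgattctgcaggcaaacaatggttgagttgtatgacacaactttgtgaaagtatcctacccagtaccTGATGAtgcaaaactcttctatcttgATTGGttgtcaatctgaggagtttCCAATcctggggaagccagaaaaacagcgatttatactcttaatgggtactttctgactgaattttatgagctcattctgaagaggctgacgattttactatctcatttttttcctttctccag
IFI30: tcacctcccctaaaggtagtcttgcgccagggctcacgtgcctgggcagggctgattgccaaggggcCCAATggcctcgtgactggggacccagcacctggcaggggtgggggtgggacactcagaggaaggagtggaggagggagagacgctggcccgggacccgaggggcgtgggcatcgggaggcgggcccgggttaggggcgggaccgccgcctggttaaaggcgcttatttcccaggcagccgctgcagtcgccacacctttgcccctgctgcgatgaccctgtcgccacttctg
The windows are chr5:150412861-150413160 for CD74, chr6:32940979-32941278 for HLA-DMB, chr6:32530238-32530537 for HLA-DRB5 and chr6:32816953-32817252 for HLA-DOB, all on the minus strand, and chr19:18173563-18173862 on the plus strand for IFI30.

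In CD74 the X core began 72 bases and the Y core 53 bases before the start, 19 bases apart. In HLA-DRB5 the cores lay 27 bases apart and in HLA-DOB 26 bases apart. In HLA-DMB the letters CCAAT came 60 bases after the X core. The IFI30 window held a Y core at 183 bases before the start and no match to the X core. HLA-DRB1 and HLA-DMA, whose RNA was not analysed here, had cores 27 and 28 bases apart. The HLA-DPB1 window held Y cores at 99 and 75 bases before the start and no X core, and one of HLA-DPA1 held an X core 32 bases after the start and no Y core. Of 34943 RefSeq promoters of the same length, 34.6% held a Y core, 10.9% an X core and 4.11% both. An X core followed 15 to 30 bases later by a Y core was present in 63 promoters, 0.18%. That range was set after the spacings were seen and leaves out HLA-DMB, so the share is no test of these genes. The interferon gamma activated site TTCNNNGAA was found in 7.66% of promoters and in none of the 5 shown. A match of letters describes the window and says nothing of binding in these cells.

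**Figure D1:**
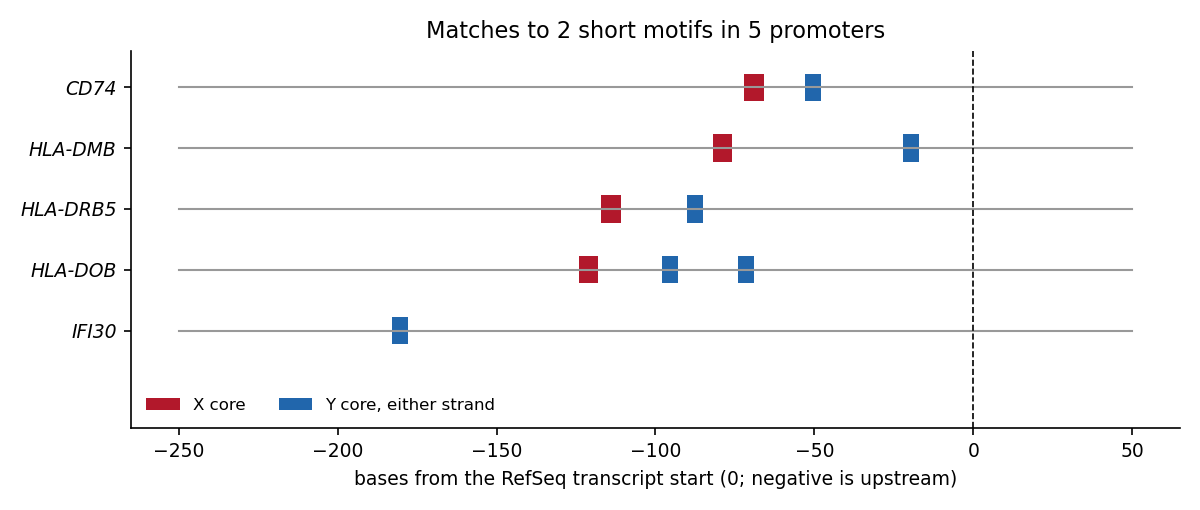
Positions of X core (red) and Y core (blue) matches in 5 promoter windows, in bases from the RefSeq transcript start at 0. CD74, HLA-DMB, HLA-DRB5 and HLA-DOB have an X core upstream of a Y core, and IFI30 has a Y core only.

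CD74, IFI30 and HLA-DMB were higher after either compound than in DMSO. Without further scaling of the libraries, CIITA did not pass the test after either. It was called lower with CS2 under the other scalings described below. With CS1, the RNA of CD74 was 2.2 times, IFI30 2.56 times and HLA-DMB 3.29 times the DMSO mean. With CS2 the ratios were 1.84, 2.07 and 6.32. The FTO hairpin gave another pattern: HLA-DMB was 2.94 times and CD74 1.17 times the shNS mean, and IFI30 was at 1.02 times. Control hairpin cells already held more RNA of all 4 genes than DMSO cells.

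Counts of genes passing the test must be read against a background in which many entries passed. Values were tested as log2(TPM + 1) with limma, and a change was called at an adjusted p under 0.05 (Benjamini-Hochberg over all entries tested). With CS1, 3 of 4 genes rose and 0 fell, where 37.5% of all entries were called higher and 14.3% lower. With CS2, 3 of 4 rose and 0 fell, against 49.5% higher and 24.6% lower. With the FTO hairpin 2 of 4 rose and 0 fell, against 31.9% higher and 24.5% lower. The median log2 change of the 4 genes was 1.11 with CS1, 0.96 with CS2 and 0.19 with shFTO, beside 0.09, 0.20 and 0.07 over all entries tested. HLA-DMB, at 0.56 to 1.37 TPM with DMSO, passed the filter on low values through the other groups. Its rise is part of the counts and medians against DMSO, which were not recomputed without it. For that reason its rise is no support for them. CS1 and CS2 were compared with the same DMSO libraries, so their changes are not independent of each other.

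The background depends on how libraries are put on a common scale. Aligning library medians on the log scale moved the median change of all entries from 0.09 to -0.09 for CS1 and from 0.20 to -0.03 for CS2. It turned the split of calls for CS1 from 37.5% higher and 14.3% lower to 21.4% and 35.1%, and for CS2 from 49.5% and 24.6% to 34.8% and 37.9%. For shFTO the split went from 31.9% and 24.5% to 25.1% and 30.8%. The rises of CD74, IFI30 and HLA-DMB with each compound passed the test under median scaling, quantile normalization and a rescaling of TPM added after the data were seen. With median scaling the log2 changes were 0.94, 1.18 and 0.93 for CS1 and 0.63, 0.82 and 1.66 for CS2, in that order of genes. CIITA was called lower with CS2 under each of these scalings, from -0.27 (limma adjusted p = 0.00689) to -0.34 (0.00112). The count of 0 fallen with CS2 therefore holds only without further scaling.

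**Figure D2:**
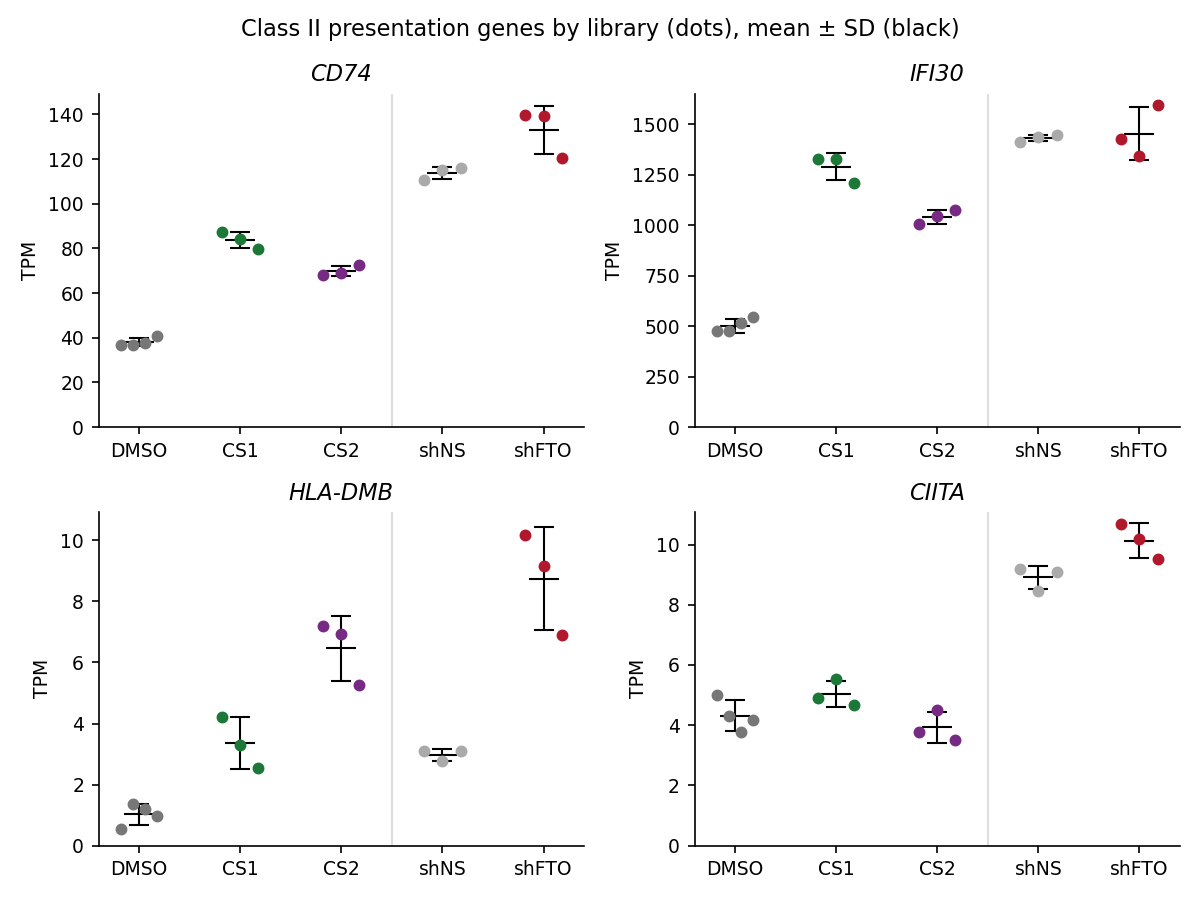
TPM of CD74, IFI30, HLA-DMB and CIITA in each library (dots) with the group mean ± SD (black), on axes that start at 0. The 4 DMSO libraries lie below all other libraries for CD74, IFI30 and HLA-DMB, while for CIITA the DMSO, CS1 and CS2 libraries overlap and both hairpin groups lie above them.

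CD74, the invariant chain, lies at chr5:150401637-150412929 on the minus strand (GRCh38). Its TPM was 36.7, 36.9, 37.9 and 40.7 in the DMSO libraries, 87.2, 84.3 and 79.8 with CS1, and 68.2, 69.0 and 72.6 with CS2. The hairpin libraries held 110.7, 115 and 116 TPM with shNS and 139.7, 139.2 and 121 with shFTO. No range overlapped that of another group, and the order from lowest to highest was DMSO, CS2, CS1, shNS, shFTO. The log2 change was 1.12 ± 0.053 (SE) with CS1 and 0.86 ± 0.053 with CS2 (limma adjusted p = 4.68e-10 and 9.32e-10). With the FTO hairpin it was 0.22 ± 0.056 (adjusted p = 0.00369). That smaller change did not pass after median scaling, at 0.14 with an adjusted p of 0.0872.

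IFI30, the lysosomal thiol reductase GILT, was the most abundant of the 4 genes in every library, at chr19:18173162-18178117 on the plus strand. The DMSO libraries held 475, 475, 514 and 548 TPM, those with CS1 1328, 1329 and 1211, and those with CS2 1005, 1045 and 1076. The 3 ranges were apart. In the hairpin arm, shNS libraries held 1413, 1437 and 1445 TPM and shFTO libraries 1426, 1341 and 1596. The shFTO range enclosed that of shNS. The log2 change was 1.36 ± 0.060 (SE) with CS1 and 1.05 ± 0.060 with CS2 (limma adjusted p = 2.69e-10 and 4.21e-10). With the hairpin it was 0.02 ± 0.064 (adjusted p = 0.822), with a 95% interval from -0.12 to 0.16. The annotation places a same-strand protein-coding gene over IFI30, whose reads could not be separated here.

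HLA-DMB, the beta chain of the peptide exchanger HLA-DM, was near the lower limit of what was tested. It lies in the class II region at chr6:32934629-32941070 on the minus strand, also under a same-strand protein-coding gene. Its TPM was 0.56, 1.37, 1.2 and 0.96 with DMSO, 4.23, 3.30 and 2.55 with CS1, and 7.21, 6.94 and 5.25 with CS2. Only 2 of the 4 DMSO libraries reached 1 TPM, so the gene was tested by virtue of the other groups. All 6 libraries with a compound were above all DMSO libraries, and the CS2 libraries were above those with CS1. In the hairpin arm it was 3.09, 2.76 and 3.09 for shNS, and 10.2, 9.16 and 6.89 for shFTO, again with no overlap. The log2 change of TPM + 1 was 1.11 ± 0.164 (SE) with CS1, 1.89 ± 0.164 with CS2 and 1.28 ± 0.175 with shFTO (limma adjusted p = 4.60e-05, 4.95e-08 and 1.92e-05). At these levels the pseudocount shrinks the change: for CS2 the ratio of means was 6.32, and the ratio of fitted TPM + 1 was 3.71.

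CIITA, the coactivator of the family, lies at chr16:10866222-10943021 on the plus strand and overlaps DEXI on the other strand. No source used here says whether counting used strand. The DMSO libraries held 5.01, 4.29, 3.79 and 4.16 TPM, those with CS1 4.89, 5.53 and 4.68, and those with CS2 3.77, 4.51 and 3.52. These ranges overlap. With shNS the values were 9.18, 8.47 and 9.08 TPM, and with shFTO 10.7, 10.2 and 9.52, both above every library of the compound arm. The log2 change was 0.19 with CS1 (95% interval 0.00 to 0.37, limma adjusted p = 0.0861), -0.11 with CS2 (-0.29 to 0.08, 0.274) and 0.17 with shFTO (-0.03 to 0.36, 0.137). The CS1 value passed without DMSO replicate 1 (0.25, adjusted p = 0.0242). The CS2 value passed, as lower than DMSO, under every other scaling, from -0.27 (adjusted p = 0.00689) to -0.34 (0.00112).

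**Figure D3:**
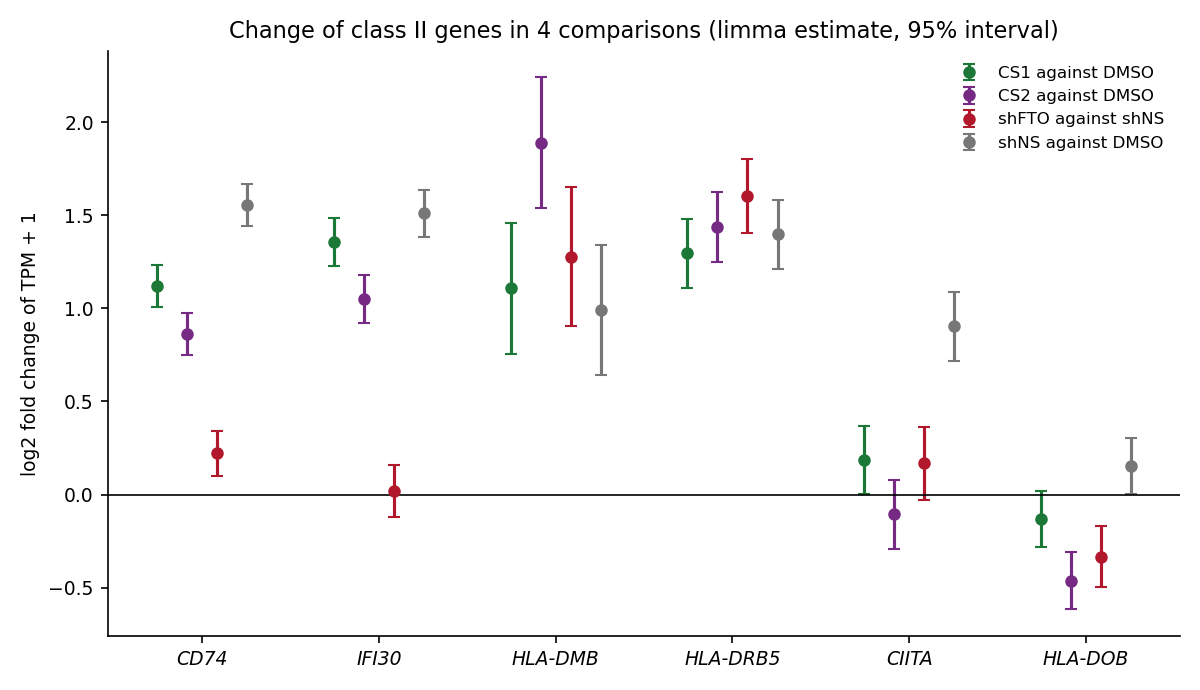
Log2 fold change of TPM + 1 of 6 class II genes in 4 comparisons (limma estimate with 95% interval). CS1, CS2 and shNS lie above 0 for CD74 and IFI30, where shFTO is at 0.22 and 0.02. HLA-DMB and HLA-DRB5 lie above 0 in all 4, and CIITA is clear of 0 after adjustment for shNS against DMSO only.

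Whether a compound and the FTO hairpin shift a gene by different amounts was tested as the difference between their log2 changes. For CS1, 2 of 4 genes passed, where 49.4% of all entries did in either direction. IFI30 changed by 1.34 ± 0.088 (SE) more with CS1 than with the hairpin (limma adjusted p = 2.46e-08) and CD74 by 0.90 ± 0.077 more (3.16e-07). HLA-DMB changed by -0.17 (95% interval -0.68 to 0.34, adjusted p = 0.581) and CIITA by 0.02 (-0.25 to 0.29, 0.918). For CS2, 3 of 4 passed, where 63.4% of all entries did. The differences were 1.03 ± 0.088 for IFI30 (7.74e-08), 0.64 ± 0.077 for CD74 (3.23e-06) and 0.61 ± 0.240 for HLA-DMB (0.0362). The HLA-DMB difference did not pass under all 3 other scalings (0.42 to 0.56), without the filter on low values (0.61, 0.0628), with a pseudocount of 5 (0.15) or with the replicate number as a block (0.60, 0.0512). It did not pass either when DMSO replicate 1 or 4, CS2 replicate 1 or 2, shNS replicate 1 or 3, or shFTO replicate 3 was left out, at 0.47 to 0.60. CIITA differed by -0.27 (-0.54 to -0.00, 0.0712) for CS2, which passed under the 3 other scalings, at -0.35 to -0.44. It also passed with a pseudocount of 5 (-0.18, 0.0497) and without DMSO replicate 3 or CS2 replicate 2 (-0.32 and -0.36). The arms differ in virus, selection and time in culture as well as in agent.

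CS1 at 100 nM and CS2 at 500 nM were given at different doses, so their values are set side by side for these doses only. All 4 genes differed between them, where 26.2% of entries were higher and 40.4% lower with CS1. CD74 was higher with CS1 by 0.26 ± 0.056 on the log2 scale (SE, limma adjusted p = 0.000972) and IFI30 by 0.31 ± 0.064 (0.000668). IFI30 no longer passed after quantile normalization, at 0.03 (0.701). CIITA was higher with CS1 by 0.29 ± 0.092 (0.0116). That call was lost without CS1 replicate 2 (0.23, 0.0541), without CS2 replicate 3 (0.23, 0.0517) and with only these groups in the fit (0.29, 0.0513). HLA-DMB alone among the 4 was lower with CS1, at -0.78 ± 0.175 (0.0011).

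For CD74, IFI30 and CIITA, every control hairpin library lay above every library of the compound arm. All 4 genes were higher in shNS, where 23.0% of entries were called higher and 33.6% lower. As above, HLA-DMB entered this test through groups other than DMSO. The log2 difference was 1.56 ± 0.053 (SE) for CD74, 1.51 ± 0.060 for IFI30, 0.99 ± 0.164 for HLA-DMB and 0.90 ± 0.086 for CIITA (limma adjusted p = 3.20e-11, 1.16e-10, 0.000106 and 5.45e-07). CIITA, at 4.31 ± 0.511 TPM in DMSO, was at 8.91 ± 0.384 in shNS. The virus, the hairpin, puromycin, the absence of DMSO and the time in culture cannot be told apart in this difference.

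Other class II chains were followed as a list of 9 genes, of which HLA-DRB5, HLA-DOB and HLA-DQA1 were matched to a row and the first 2 were tested. HLA-DRB5, a beta chain of the HLA-DR family, held 13.7, 15.3, 15.2 and 13.3 TPM with DMSO, 39.8, 38.1 and 32.6 with CS1, and 34.6, 42.4 and 45.7 with CS2. In the hairpin arm it held 38.0, 39.0 and 41.5 TPM with shNS and 127, 123 and 116 with shFTO. Both compound groups lay above DMSO and overlapped each other and shNS, and shFTO lay above every other library. HLA-DRB5 rose by 1.3 ± 0.087 on the log2 scale with CS1, 1.44 ± 0.087 with CS2 and 1.60 ± 0.093 with shFTO (SE, limma adjusted p = 1.51e-08, 8.50e-10 and 3.55e-09). Its transcript shares 234 of 1230 windows of 31 bases (19%) with HLA-DRB1 transcripts, and HLA-DRB1 was not analysed here. The value is therefore uncertain as that of 1 gene and may hold reads of related HLA-DRB copies.

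The CS1 change of HLA-DRB5 minus its hairpin change was -0.31 (limma adjusted p = 0.0588), and passed under the 3 other scalings at -0.40 to -0.54. It also passed with a pseudocount of 5 (-0.41), with the stricter filter (-0.31), with only the 4 groups concerned in the fit (-0.31), and without DMSO replicate 4, CS1 replicate 1 or shFTO replicate 3 (-0.34 to -0.37). For CS2 the difference was -0.17 (0.277) and passed with a pseudocount of 5 (-0.28), quantile normalization (-0.48) and rescaled TPM (-0.37). Between CS1 and CS2 HLA-DRB5 differed by -0.14 (0.192), which passed without CS2 replicate 1 (-0.26, 0.0162).

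HLA-DOB, the beta chain of HLA-DO, the inhibitor of HLA-DM, went the other way. Its TPM was 11.1, 9.49, 9.63 and 11.0 with DMSO, 8.31, 10.0 and 9.61 with CS1, and 6.76, 7.26 and 7.52 with CS2. With shNS it was 11.4, 11.7 and 11.5, and with shFTO 9.21, 8.29 and 9.34. The CS2 range lay below DMSO and the shFTO range below shNS, while CS1 overlapped DMSO. A same-strand protein-coding gene lies over HLA-DOB in the annotation, and its reads could not be separated here. HLA-DOB fell by 0.46 ± 0.071 on the log2 scale with CS2 and by 0.33 ± 0.076 with shFTO (SE, limma adjusted p = 2.82e-05 and 0.00164). With CS1 the change was -0.13 (0.141), and it passed as a fall under the 3 other scalings (-0.25 to -0.31). HLA-DQA1, an alpha chain of HLA-DQ, was not tested: it was at 0.34 to 0.61 TPM in shFTO and at 0.12 TPM or less in every other library.

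The proteins that hold CIITA at promoters moved in mixed directions. Of 7 RFX, NF-Y and CREB genes, 1 was higher and 1 lower with CS1, 1 higher and 4 lower with CS2, and 2 higher and 3 lower with shFTO. All entries were called higher in 37.5%, 49.5% and 31.9% of cases, and lower in 14.3%, 24.6% and 24.5%. The median log2 change of the 7 was -0.00, -0.21 and -0.00, in that order, and with median scaling 5 rather than 1 were lower with CS1. RFX5, the DNA-binding subunit of RFX, rose from 45.4 ± 0.507 to 66.8 ± 3.25 TPM with CS2 (log2 change 0.55, limma adjusted p = 2.44e-09). Its partner RFXANK rose to 72.9 ± 1.2 TPM with CS1, from 57.2 ± 1.65, and fell to 40.8 ± 4.53 with CS2. NFYC, a subunit of NF-Y, fell from 47.3 ± 1.49 to 31.6 ± 4.33 TPM between shNS and shFTO, where NFYA rose from 166 ± 5.38 to 208 ± 13.2.

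Of 9 regulators known to act on CIITA or with it, 8 were tested: 8 rose with CS1, 7 with CS2 and none fell with either, while 5 rose and 2 fell with shFTO. Over all entries the shares called higher with CS1, CS2 and shFTO were 37.5%, 49.5% and 31.9%, and those called lower 14.3%, 24.6% and 24.5%. The CS1 count is 6 with median scaling, where SPI1 (0.08, limma adjusted p = 0.0617) is among those lost. Its fall with shFTO was lost with only these groups in the fit (adjusted p = 0.0523). Under each other scaling 1 fell with CS2. The list mixes activators and repressors, and members of both kinds rose. EZH2, a histone methyltransferase that represses genes, went from 102 ± 2.37 TPM with DMSO to 346 ± 17.1 with CS2 and to 130 ± 12.6 with CS1. It fell from 73.8 ± 1.01 to 56.5 ± 4.57 between shNS and shFTO. BCL6, a transcriptional repressor, rose from 5.95 ± 0.116 TPM to 10.0 ± 0.140 with CS1 and 14.9 ± 1.17 with CS2. KAT2B, an acetyltransferase that works with coactivators, rose from 21.3 ± 1.91 TPM to 34.0 ± 3.85 and 46.2 ± 4.11.

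The interferon gamma pathway is the best known inducer of CIITA. Its ligand IFNG was listed at 0 in every library. All 6 members counted and tested, from the receptor to IRF1 and the feedback inhibitor SOCS1, rose with CS1 and with CS2 under each scaling, with median log2 changes of 0.63 and 1.11. With shFTO 4 rose and 1 fell. Among all entries, 37.5% were called higher with CS1 and 49.5% with CS2, and 31.9% higher and 24.5% lower with shFTO. The receptor chain IFNGR2 rose from 27.8 ± 0.186 TPM with DMSO to 44.8 ± 1.07 with CS1 and 79.7 ± 1.35 with CS2, and IFNGR1 from 55.2 ± 0.307 to 91.9 ± 2.04 and 118 ± 5.19. SOCS1 rose from 1.73 ± 0.167 TPM to 5.29 ± 0.516 and 10.5 ± 0.861. IFNGR2 fell between shNS and shFTO by 0.09 on the log2 scale (limma adjusted p = 0.0241), a call lost when shNS replicate 2 or 3 or shFTO replicate 1 or 2 was left out and with only these groups in the fit.

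Endosomal proteases and cystatin C, which act on CD74 and on antigens beside IFI30, were mostly higher. Of 9 tested, 7 rose and 0 fell with CS1, 7 rose and 1 fell with CS2, and 7 rose and 0 fell with shFTO. In that order, 37.5%, 49.5% and 31.9% of all entries were called higher, and 14.3%, 24.6% and 24.5% lower. The gene that fell with CS2 was CTSD, an aspartic protease, from 2442 ± 151 to 1464 ± 96.9 TPM, a call lost with quantile normalization. CTSH, an aminopeptidase of lysosomes, rose from 87.1 ± 3.13 TPM to 204 ± 7.25 with CS1 and 189 ± 6.30 with CS2. CTSB rose from 408 ± 9.32 TPM in shNS to 973 ± 26.1 in shFTO, and from 267 ± 5.29 in DMSO to 402 ± 12.5 with CS1 and 487 ± 3.54 with CS2. CTSV was at 5.46 ± 0.379 TPM with DMSO and 23.1 ± 0.679 with CS2. With CS1 its log2 change was 0.14 (limma adjusted p = 0.0353), a call lost without any 1 of DMSO replicates 3 and 4 or CS1 replicates 1, 2 and 3. It was also lost with the replicate block (0.11, adjusted p = 0.118), with only these groups in the fit (0.14, 0.108) and under the 3 other scalings. In shFTO, where IFI30 did not pass, the median log2 change over all 9 was 0.55, with CTSV (-0.13) and LGMN (0.13) not passing. CTSV passed there as a fall with median scaling (-0.21), quantile normalization (-0.31), rescaled TPM (-0.13) and no variance trend (-0.13).

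Genes for the surface turnover of class II molecules and for costimulation completed the pathway. Of 6 tested turnover genes, 4 rose and 0 fell with CS1, 3 rose and 3 fell with CS2, and 2 rose and 0 fell with shFTO. Beside them, 37.5%, 49.5% and 31.9% of all entries were called higher, and 14.3%, 24.6% and 24.5% lower. The rises with CS2 and shFTO were near those shares. With median scaling CS1 gave 2 and 2. CD82, a tetraspanin of class II compartments, rose from 23.0 ± 2.45 TPM to 81.8 ± 12.1 with CS1 and 72.2 ± 4.82 with CS2. MARCH8, a ubiquitin ligase, fell from 14.6 ± 0.692 to 9.58 ± 0.274 TPM with CS2 (log2 change -0.56, limma adjusted p = 3.87e-08). Of the costimulatory ligands, ICAM1 and CD58 rose in each of the 3 comparisons, and ICOSLG fell with CS2 and did not pass with CS1 or shFTO. CD86 was at 0.03 ± 0.0245 TPM with DMSO, 0.44 ± 0.0964 with CS1 and 1.43 ± 0.371 with CS2. It passed the filter on low values through CS2 and shFTO alone, so its rises are given as a description only. Its rise with CS1 was lost without CS1 replicate 2 (0.45, adjusted p = 0.0531), with a pseudocount of 5 and with median scaling. CD80 and CD40 were at or below 0.56 TPM in every library.

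**Figure D4:**
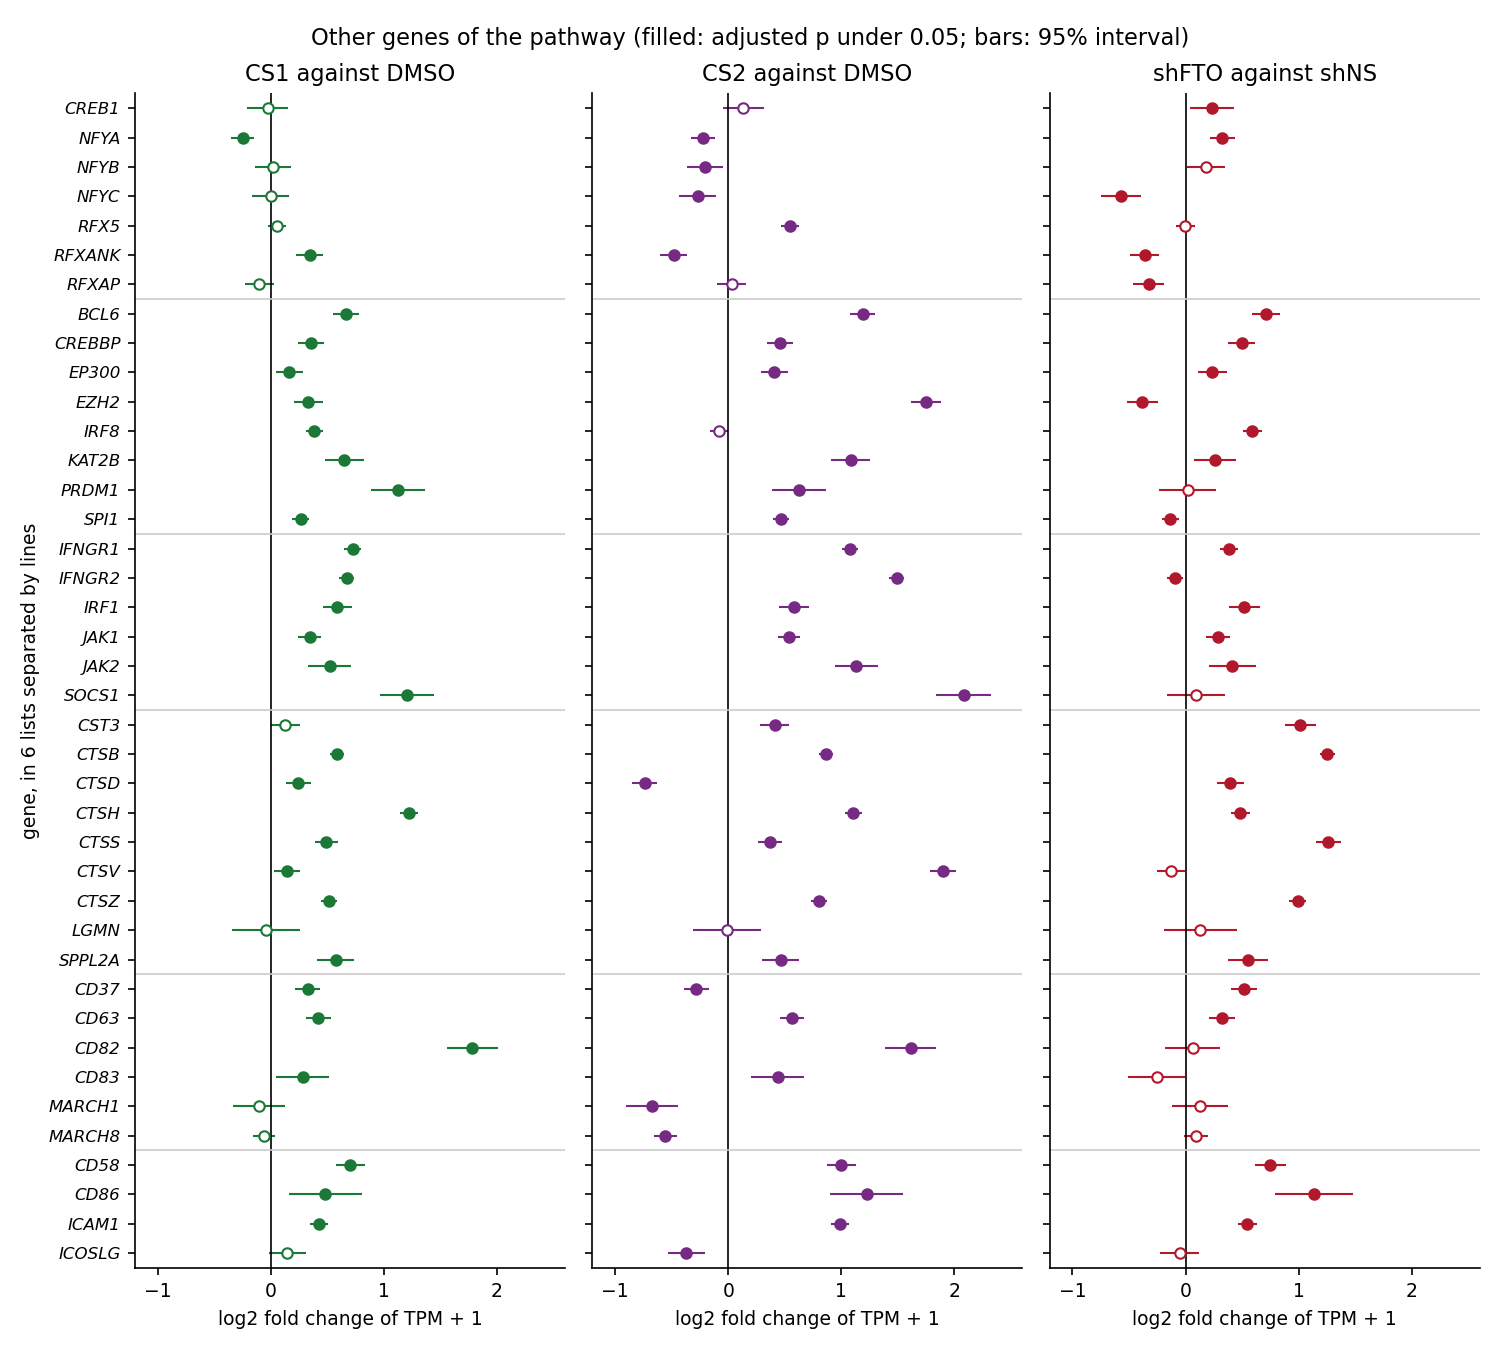
Log2 fold change of TPM + 1 (limma estimate, 95% interval) for 40 genes in 6 lists separated by lines: promoter factors, regulators of CIITA, interferon gamma pathway, endosomal proteases, surface turnover and costimulation. Filled points passed the test. All 6 interferon gamma pathway genes rose with each compound, where 37.5% of all entries were called higher with CS1 and 49.5% with CS2.

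Most tested markers of the monocytic lineage rose with each compound, as did CD74, IFI30 and HLA-DMB. One of these markers, SPI1, is also among the regulators of CIITA. The match was partial with shFTO, where LYZ rose from 163 ± 3.29 to 2226 ± 306 TPM and IFI30 and CIITA did not pass. Of 6 markers tested, CSF1R was at 0.55 to 0.71 TPM with DMSO and passed the filter on low values through the groups where it is high. The other 5 rose with CS1 and with CS2, and 4 of them rose and 1 fell with shFTO. Among all entries, 37.5% rose with CS1 and 49.5% with CS2, and 31.9% rose and 24.5% fell with shFTO. With CS2 the change of CD33 was 0.09, and it passed as a fall under the 3 other scalings (-0.11 to -0.14). With shFTO the rises of CD33 (0.06 with median scaling) and ITGAM (0.16 with quantile normalization) were each lost under 1 scaling. The ITGAM rise was also lost without shNS replicate 2 or shFTO replicate 1 or 2, and the CD33 call with CS2 without DMSO replicate 1 or CS2 replicate 1. The summed level of the list, over 8 genes, was 347 to 369 TPM with DMSO, 723 to 761 with CS1, 910 to 955 with CS2, 582 to 596 with shNS and 2771 to 3354 with shFTO. By this sum the groups ran DMSO, shNS, CS1, CS2, shFTO, which is the order of the HLA-DMB means, while CD74 and IFI30 were lower with CS2 than with shNS. The lysozyme gene LYZ was highest in shFTO, where its 2048 to 2579 TPM made up most of the sum. CD14 stayed below 1 TPM in every library although it defines mature monocytes. The part of lineage state in the class II changes was not tested. In bulk RNA, more cells with class II RNA and more class II RNA per cell cannot be told apart.

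Markers of B cells and dendritic cells, which also carry class II molecules, and of T and NK cells differed in level and direction. The summed level of 6 B cell genes was 12.0 to 12.7 TPM with DMSO, 31.6 to 36.1 with CS1, 23.2 to 28.0 with CS2, 19.2 to 20.6 with shNS and 24.0 to 28.8 with shFTO. Of the 4 tested, 4 rose with CS1, 3 rose and 1 fell with CS2, and 2 rose and 1 fell with shFTO. The shares of all entries called higher were 37.5%, 49.5% and 31.9% in that order, and those called lower 14.3%, 24.6% and 24.5%. CD79A, at 0.75 to 1 TPM with DMSO, passed the filter on low values through the other groups. Its rises are included in the count but are no support for it. CD22 made up most of the increase, and the defining marker MS4A1 was at 0.02 TPM or less in every library. Of 6 dendritic cell genes only BATF3 was tested, and FCER1A was listed at 0 throughout. BATF3 lay at 36.6 to 46.8 TPM with DMSO, 23.3 to 24.3 in shNS and 9.04 to 18.7 in shFTO. BATF3 fell with shFTO and passed with neither compound. The sum of the dendritic genes was 36.7 to 47.0 TPM with DMSO, 46.4 to 48.7 with CS1, 45.04 to 50.4 with CS2, 23.5 to 24.5 with shNS and 9.82 to 19.9 with shFTO. The 6 T and NK cell genes summed to 264 to 281 TPM with DMSO, 458 to 492 with CS1, 427 to 450 with CS2, 448 to 467 with shNS and 244 to 260 with shFTO, nearly all of it NKG7, with CD3E listed at 0 in every library. Of the 3 tested, 2 rose with CS1 and with CS2, and 1 rose and 1 fell with shFTO, beside the same shares over all entries. CD2, at 0.79 to 1.14 TPM with DMSO, also passed the filter through the other groups. The part of these genes in the class II changes was not tested.

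Across the 16 libraries, which share groups, CD74 and IFI30 ran closely together (Pearson r = 0.957 of log2(TPM + 1)). HLA-DMB and CIITA were least alike (r = 0.423), and CD74 and CIITA stood at r = 0.809. These values describe 5 groups of replicates, not 16 independent conditions. Among all tested entries, the patterns of SHISA5 (r = 0.981) and LITAF (0.977) were among the 3 most like CD74. The 3 most alike were, for IFI30, CAPN1 (0.978), CD52 (0.977) and FXYD6 (0.976), for HLA-DMB GUSB (0.974), OTUD1 (0.973) and ACVR1 (0.971), and for CIITA CAPG (0.974), BTN3A1 (0.974) and HOXA9 (0.973).

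By level, CD74 had 5 separate ranges, ordered DMSO, CS2, CS1, shNS and shFTO. For IFI30 the order was the same, with shNS and shFTO overlapping. HLA-DMB ran DMSO, shNS, CS1, CS2, shFTO, where shNS overlapped CS1 and CS2 overlapped shFTO. CIITA ran CS2, DMSO, CS1, shNS, shFTO, with overlap among the first 3. The highest column sum of the 16 was 1000001 TPM, between 18675 and 19358 entries were above 0 per library, replicates of a group correlated at 0.988 to 0.993 across entries, and 0 pairs of libraries held identical values.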

How the data were processed

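The authors deposited TPM for 16 NOMO-1 libraries in 5 groups; the unit was read from the column sums. RSEM 1.2.31 and GRCh38 are named, per the submitters' processing notes. The aligner is not given in the sources used here, nor is the annotation. Since TPM carry no counts, depth is unknown, and counting error was not computed. Columns were matched to samples by name, and 0 columns went unused.

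Values entered as log2(TPM + 1), with no further scaling. One mean per group was fitted to all 16 libraries with limma 3.58.1 (R 4.3.3; lmFit, eBayes with trend). The 14951 entries tested had 1 TPM or more in 3 or more libraries. Tests were two-sided, with Benjamini-Hochberg adjustment per comparison, and the fit was tested on simulated data. Tables and figures were made in Python 3.11.15 (numpy 2.4.6, pandas 2.3.3, matplotlib 3.10.9). Gene positions and overlaps came from GENCODE 29, and promoters from RefSeq.

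The genes, lists and comparisons were chosen with earlier results of these data known. By rule, every one of the 9 genes with a row was named, with up to 4 genes of each pathway list, by smallest adjusted p. A few others (IRF1, CTSD, LYZ, cell markers, HLA-DQA1, CD80 and CD40) were named after their values were seen. Results for 2 genes are not reported here, and these genes enter no count or median of a list. The series text calls the replicates biological, without saying whether cultures were separate, so p-values measure the spread between these samples. Alternatives were other pseudocounts (0.1 and 5), no filter, a stricter filter (5 TPM), median scaling, quantile normalization, only the groups compared, a replicate block, no variance trend and leaving out each replicate. A rescaling of TPM was added after seeing the data. Same-numbered replicates did not deviate together in every pair, so the numbers were not taken to pair libraries.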

Additional observations from a re-analysis of the deposited data

Results flagged for a closer look

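The DMSO group, with 4 libraries, was checked in 30 genes for a library that stands apart by Dixon's ratio of its gap to the group's range at the 95% level. Chance flags about 1 in 20, and 3 were found, none of them in CD74, IFI30, HLA-DMB or CIITA. RFXANK was at 54.71 TPM in DMSO replicate 1 and at 57.76 to 58.15 in the others. Without that library its log2 change was 0.32 with CS1 and -0.50 with CS2. IFNGR2 was at 28.05 TPM in DMSO replicate 2 and at 27.67 to 27.70 in the others, a narrow range, and its changes without it were 0.67 and 1.49. CD82 was at 19.31 TPM in DMSO replicate 4 and at 24.13 to 24.29 in the others, and its changes without it were 1.71 and 1.54. All 6 changes passed the test (limma) with and without the library.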

How the results depend on the processing

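The number of the 4 genes called was the same or within 1.5 times in 128 of 129 alternatives over 7 comparisons. The exception was shFTO against shNS with median scaling, where 1 gene, HLA-DMB, was called. With only 4 genes this tolerance is wide, as a change from 3 to 2 or to 4 stays within it. The number also does not show which genes were called or in which direction. Leaving out 1 replicate gave 3 to 4 genes for CS1 against DMSO, 3 for CS2 against DMSO, 2 for shFTO against shNS, 3 to 4 for CS1 against CS2, 4 for shNS against DMSO, and 2 and 2 to 4 for the CS1 and CS2 changes minus the hairpin change. Of 774 values for single class II genes, 714 kept direction and call and 12 changed sign.

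Among the class II and pathway genes the sign changes were these, as log2 changes, and only CTSV was called before. Outside that set, the monocytic marker CD33 was called higher with CS2 at 0.094. It was called lower with median scaling (-0.135), quantile normalization (-0.137) and rescaled TPM (-0.112). For CS1 against DMSO with median scaling, quantile normalization and rescaled TPM, RFX5 was -0.122, -0.082 and -0.071. With the first 2 settings CTSV was -0.034 and -0.012 and ICOSLG was -0.032 and -0.040. NFYC was 0.019 with the replicate block and -0.027 to 0.019 without 1 replicate. For shFTO against shNS, IFI30 was -0.066 with median scaling, -0.017 with quantile normalization and -0.050 to 0.075 without 1 replicate. RFX5 was 0.010 with quantile normalization and -0.033 to 0.019 without 1 replicate. SOCS1 was -0.095 with quantile normalization and -0.015 to 0.25 without 1 replicate. CD82 was -0.024 with median scaling and -0.051 to 0.13 without 1 replicate. For the CS1 change minus the hairpin change, CIITA was -0.013 with a pseudocount of 5, -0.074 with median scaling, -0.0045 with quantile normalization, -0.089 with rescaled TPM and -0.040 to 0.080 without 1 replicate. HLA-DMB was 0.15 with a pseudocount of 0.1. The cause was not tested.

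Replicate numbers are shared between groups, but same-numbered libraries correlated at only -0.04 to 0.22. Of 6 libraries in each pair of groups, 5 correlated best with their own number for shFTO with shNS and for CS1 with CS2. The number was 4 for CS1 with DMSO, 3 for CS2 with DMSO and 2 for shNS with DMSO. Whether same-numbered libraries were handled together is not known. With the replicate block, the genes called were 3, 3, 2, 4, 4, 2 and 2 in the order above, a change from 3 to 2 in the last. The block also ended the CS1 call of CTSV. Depth is unknown, so how far it limits HLA-DMB near 1 TPM could not be computed.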
